A study of Mus musculus with 2 samples.

Results

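The genes described here are the molecular chaperones of the heat shock protein and DnaJ families in hindlimb skeletal muscle. They were chosen by symbol, as the genes named Hspa (without Hspa9), Hspb, Hsp90, Hsph1, Hspd1, Hspe1, Dnaja, Dnajb, Dnajc (without Dnajc19), Bag, Cct, Hsf, Cryab and Tcp1 that a probe set reads under a single symbol. Of 19938 genes measured, 89 met this rule, read by 112 probe sets. The tissue came from male C57BL/6J mice on standard chow. The transgenic mice carried a Syn4 transgene, which overexpresses the plasma membrane SNARE protein syntaxin 4, and the control mice were wild type. Each genotype was measured on 1 array of biotin-labelled total RNA. The sources used here do not state the age of the mice, the number of animals behind an array or the promoter that drives the transgene. Every value below is therefore a single measurement without an error, no difference was tested, and none could be set against the spread between mice.

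Chaperones keep proteins folded as they are made, moved, stressed or degraded. HSP70 proteins bind exposed stretches of clients in cycles driven by ATP, J domain proteins (DnaJ types A, B and C) bring clients and start the cycle, and nucleotide exchange factors of the HSP110 and BAG families end it. HSP90 finishes selected clients, the ring-shaped chaperonins fold proteins in a closed chamber, and the small heat shock proteins hold unfolding proteins without using ATP. Heat shock factors (HSF) switch many of these genes on under stress. In striated muscle, small heat shock proteins and their partners sit at the Z-disc and along desmin and actin filaments, where contraction strains proteins.

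Values are log2 intensities as the authors deposited them, and each difference is the transgenic minus the wild-type value. The gene of the transgene, Stx4a, read 12.20 on the transgenic and 8.84 on the wild-type array, as the labels say. All 12 listed fast fibre genes lay between 13.11 and 14.36 in both arrays, so the tissue had the transcripts of skeletal muscle. A gene passed the level filter when the higher of its 2 values reached 6.79, the midpoint of such higher values across the table, and 74 of the 89 chaperone genes passed. The other 15 were dim in both arrays and are named below without weight on their differences.

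Most chaperone genes were at nearly the same level in both arrays. Across all 89, 54 were higher in the transgenic array, 33 lower and 2 equal, with a median difference of 0.06. Across all 19938 genes, 46.9% were higher and the median was 0.00. Past the level filter, 64.9% of the 74 chaperone genes were higher (median 0.095), beside 53.5% of all 9974 genes (median 0.03). Of the 74 past the filter, 2 were higher by at least 1.5-fold (0.58 on the log2 scale), Hspb1 and Dnajb1, and none was lower by that much. Those shares, 2.70% and 0%, stand beside 2.66% and 1.71% of all 9974 genes past the filter, so the share of higher chaperone genes was close to that of genes in general. At 0.32 on the log2 scale, 7 were higher (9.46%, against 10.3% of all genes) and 2 lower (2.70%, against 6.86%).

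**Figure D1:**
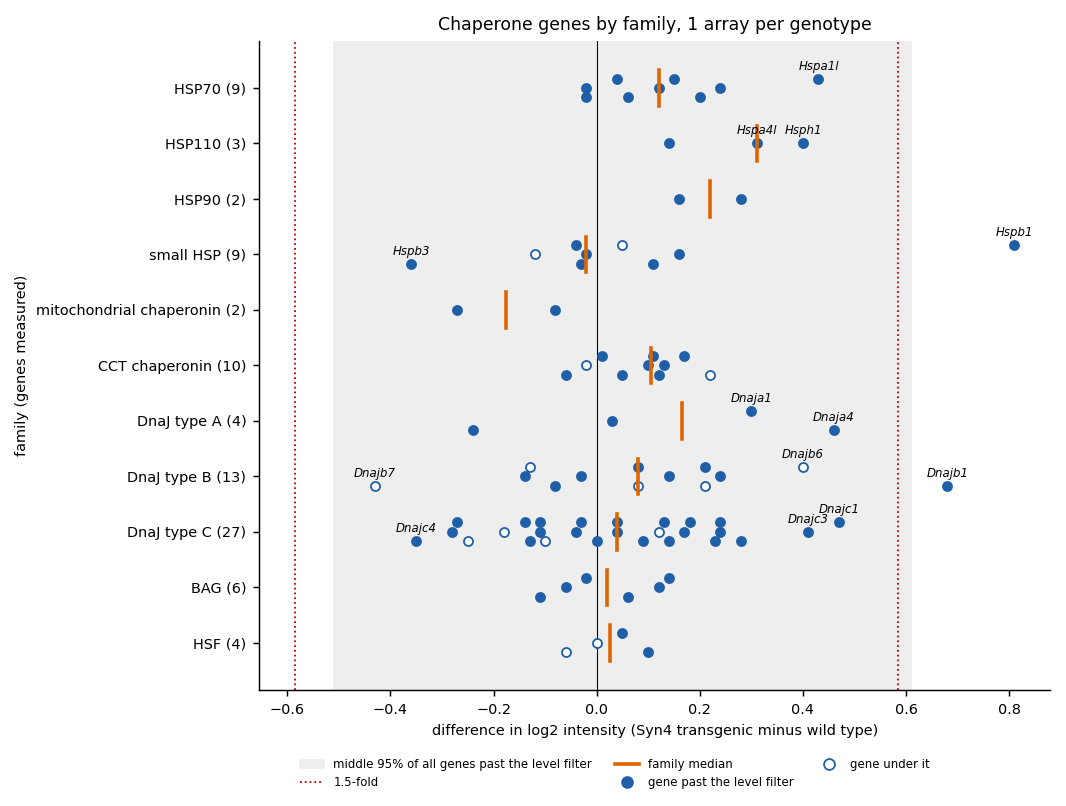
Difference in log2 intensity (x axis, transgenic minus wild type) of each of the 89 genes, in rows by family. Filled points passed the level filter and open points did not, orange bars are family medians, the grey band holds the middle 95% of all genes past the filter and dotted lines mark 1.5-fold. Hspb1 (0.81) and Dnajb1 (0.68) lie beyond 1.5-fold, and the HSP110 and HSP90 genes lie to the right of 0.

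The gene with the largest difference was Hspb1, whose protein, known as HSP25 in mouse and HSP27 in human, protects actin and other filaments. Its brighter probe set read 12.19 in the transgenic and 11.38 in the wild-type array, which is 0.81 or 1.75-fold higher. The second probe set read 12.04 in the transgenic and 11.22 in the wild-type array, a difference of 0.82. Both probe sets gave nearly the same difference at different brightness. They read the same gene on the same arrays, so they are not independent readings of a difference between genotypes. Of all 9974 genes past the filter, 130 (1.30%) had a difference of 0.81 or more. Among genes of like level, those with a mean of both arrays from 9.75 to 14.58, the middle 95% of differences ran from -0.55 to 0.52.

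Dnajb1, the main stress-inducible J protein of the cytosol, was at 7.24 in the transgenic and 6.56 in the wild-type array. It was 1.60-fold higher (0.68), and 199 of all genes past the filter reached that size. Dnajb1 was the only chaperone gene that passed the filter through 1 array alone. Among genes of like level past the filter, with means from 6.35 to 7.60, the middle 95% of differences ran from -0.53 to 0.70. The filter asks 6.79 of the higher value, so genes with means under 6.79 entered only if their arrays differed. That widens the range, which therefore cannot show whether the Dnajb1 difference is usual at its level.

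Promoters of 73 of the 89 genes were matched in RefSeq (GRCm38.p6). The 16 genes without one, among them Hsp90aa1, Hspa8, Cryab and Hspb2, were not searched. Heat shock elements, the sites that heat shock factors bind, are built from GAA units in alternating orientation. A run of 3 units (GAA, any 2 bases, TTC, any 2 bases and GAA, or its reverse complement) was searched on both strands from 250 bases before to 50 after each start. It was present in 6 of 93 chaperone promoters (6.45%) and in 198 of all 32851 promoters in the table (0.60%). The 6 promoters belong to 4 genes, Hspd1, Hspe1, Hsph1 and Dnajb6. They are not 6 separate sites. The overlapping promoters of Hsph1 hold the same match, as do those of Dnajb6, and Hspd1 and Hspe1 share a stretch. The count over all promoters was likewise by promoter and not by site. The shorter runs of 2 units (GAA, any 2 bases and TTC, or TTC, any 2 bases and GAA), which also lie within the longer motif, were in 23 chaperone promoters (24.7%) and in 15.1% of all promoters. The upstream sequences are shown for the genes with the largest differences, Hspb1 and Dnajb1, and for the stretch between the starts of Hspd1 and Hspe1, a head-to-head pair with the motif of 3 units. Capitals mark runs of 2 or 3 units.
Hspb1 (chr5:135887669-135887918, plus strand): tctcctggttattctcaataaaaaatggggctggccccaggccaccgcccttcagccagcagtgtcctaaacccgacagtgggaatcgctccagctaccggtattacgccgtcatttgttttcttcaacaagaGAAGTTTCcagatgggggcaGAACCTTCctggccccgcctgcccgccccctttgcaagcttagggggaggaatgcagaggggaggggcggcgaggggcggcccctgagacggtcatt
Dnajb1 (chr8:83607925-83608174, plus strand): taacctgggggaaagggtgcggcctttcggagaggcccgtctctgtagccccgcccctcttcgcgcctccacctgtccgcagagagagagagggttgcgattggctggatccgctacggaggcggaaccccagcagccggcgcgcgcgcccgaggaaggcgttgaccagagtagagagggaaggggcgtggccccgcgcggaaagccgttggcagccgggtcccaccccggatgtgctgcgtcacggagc
Hspd1 and Hspe1 (chr1:55087933-55088147, plus strand): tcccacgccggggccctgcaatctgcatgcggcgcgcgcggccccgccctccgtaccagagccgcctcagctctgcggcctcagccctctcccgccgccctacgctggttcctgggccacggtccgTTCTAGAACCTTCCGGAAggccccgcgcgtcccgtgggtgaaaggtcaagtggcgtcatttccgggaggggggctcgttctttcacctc

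The Hspb1 promoter held a pair of 2-unit matches, starting 117 and 97 bases before the transcript's start, and no run of 3 units. The Dnajb1 window above held neither motif, nor did its second listed promoter. The promoter of Hspa1a, the inducible HSP70, held a run of 2 units but none of 3. Between Hspd1 and Hspe1, the matches overlapped into a run of 18 bases starting 89 bases before the Hspe1 start. The 4 genes with the motif of 3 units did not share a direction. Hsph1 and Dnajb6 differed by 0.40 each, with Dnajb6 under the level filter, whereas Hspd1 differed by -0.08 and Hspe1 by -0.27. A match of letters is a description of the window and says nothing of whether a factor binds there.

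The small heat shock proteins had no common direction. Of 9 genes, Hspb1 included, 4 were higher and 5 lower, with a median of -0.02. The median was 0.02 after removal of the loess trend and 0.01 after renewed quantile normalization, so its sign depended on scaling. Cryab, the alpha-B crystallin that guards desmin, was at 12.38 in the transgenic and 12.40 in the wild-type array. Hspb6, abundant in slow and cardiac muscle, was at 13.89 in the transgenic and 13.92 in the wild-type array. Hspb8, which works with Bag3 to clear damaged filamin at the Z-disc, was at 12.76 in the transgenic and 12.80 in the wild-type array. These 3 genes were equal to within 0.04.

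Hspb7, a filamin-binding member of heart and skeletal muscle, was at 12.71 in the transgenic and 12.60 in the wild-type array. Hspb2 and Hspb3 form a complex in muscle, and their transcripts differed in opposite directions. Hspb2 was at 10.69 in the transgenic and 10.53 in the wild-type array (0.16), and Hspb3 at 9.07 in the transgenic and 9.43 in the wild-type array (-0.36, 1.28-fold lower). Hspb3 had the largest negative difference of all chaperone genes past the filter. Hspb2 and Cryab are neighbours on chromosome 9, and differed by 0.16 and -0.02. Hspb11 (0.05), a protein of intraflagellar transport named for its fold, and Hspb9 (-0.12), a testis gene, were under the filter.

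Among HSP70 genes 7 of 9 were above 0, with a median of 0.12, beside 53.5% and 0.03 for all genes past the filter. The HSP70 median was 0.08 after the loess and 0.07 after the quantile alternative. Hspa8, the constitutive HSP70 of the cytosol, was at 13.39 in the transgenic and 13.35 in the wild-type array on its brightest probe set. Its other probe sets differed by 0.08 and 0.00. Hspa1a, the inducible cytosolic form, was at 8.43 in the transgenic and 8.23 in the wild-type array. Its chromosome 17 neighbour Hspa1l, best known from testis, was at 10.53 in the transgenic and 10.10 in the wild-type array, a difference of 0.43. A probe set that Hspa1a shares with Hspa1b, outside the naming rule, read 10.71 in the transgenic and 10.48 in the wild-type array. Hspa1a and Hspa1b are near-identical in sequence, so the split of signal between them is uncertain.

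Hspa5, the HSP70 of the endoplasmic reticulum, was at 11.27 in the transgenic and 11.29 in the wild-type array. The other HSP70 genes also differed little. Hspa12a, a divergent member, differed by 0.24, Hspa2, known from testis, by 0.15, Hspa13, of the endoplasmic reticulum, by 0.12, Hspa14, a ribosome-associated member, by 0.06 and Hspa12b, known from endothelium, by -0.02.

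The nucleotide exchange factors of the HSP110 family were higher in all 3 genes, with a median of 0.31. The median over all genes past the filter was 0.03. Hsph1, the stress-inducible member, was at 10.44 in the transgenic and 10.04 in the wild-type array, or 1.32-fold higher. Hspa4l was at 7.66 in the transgenic and 7.35 in the wild-type array, and Hspa4 at 10.81 in the transgenic and 10.67 in the wild-type array. The family median kept its sign after loess (0.28) and quantile scaling (0.27), but none of the 3 genes reached 1.5-fold.

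Both measured HSP90 genes were higher. Hsp90aa1, the inducible cytosolic HSP90, was read by 3 probe sets. They were at 10.11, 9.75 and 9.54 with the transgene and at 9.83, 9.47 and 9.26 in wild type. The 3 differences were all 0.28, so the choice of probe set did not change the reading. Whether the 3 probe sets read the RNA independently was not tested. Hsp90b1, the HSP90 of the endoplasmic reticulum, was at 10.69 in the transgenic and 10.53 in the wild-type array. Hsp90ab1, the constitutive form, and Hsf1, the main stress-activated heat shock factor, were not analysed here.

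**Figure D2:**
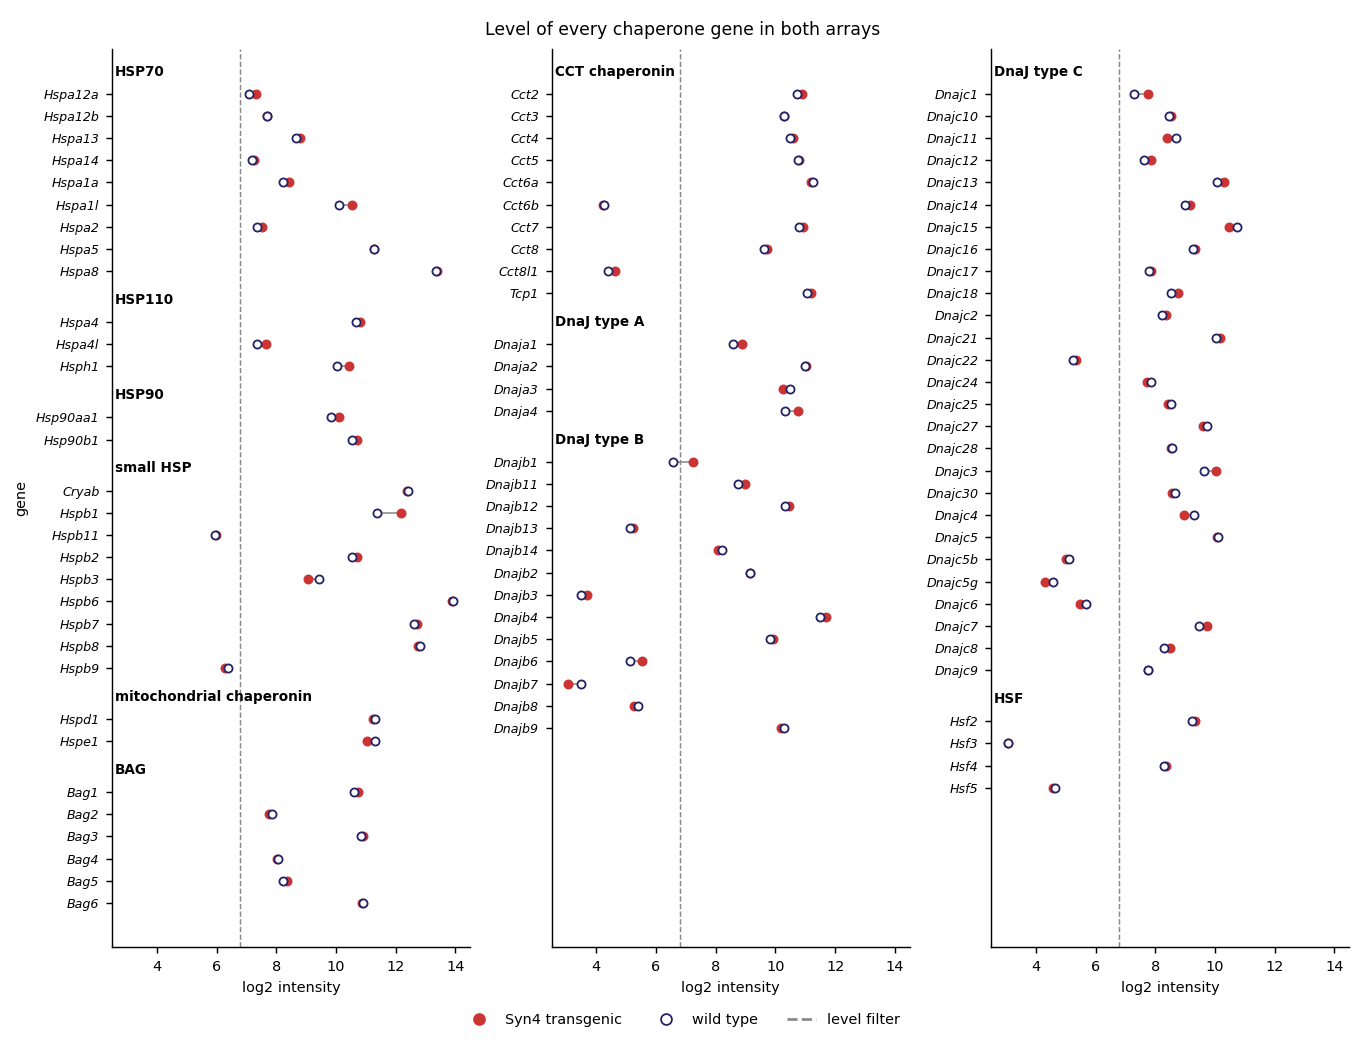
Log2 intensity (x axis) of each of the 89 genes in the transgenic array (filled red) and the wild-type array (open blue), in rows by family. The dashed line is the level filter of 6.79. The points of most genes overlap, and the widest gap past the filter is that of Hspb1.

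The mitochondrial chaperonin genes were lower on their brightest probe sets. Hspd1 and Hspe1 encode the mitochondrial chaperonin and its lid, and lie next to each other on chromosome 1. Hspe1 was at 11.04 in the transgenic and 11.31 in the wild-type array (-0.27), and its second probe set differed by -0.25. Hspd1 was at 11.23 in the transgenic and 11.31 in the wild-type array (-0.08), while its second probe set differed by 0.01. The probe sets of Hspd1 thus disagreed in sign. These neighbours, which share the upstream stretch printed above, did not differ by the same amount.

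The DnaJ proteins of mitochondria were lower too. Dnaja3, the mitochondrial J protein that serves the matrix HSP70, was at 10.25 in the transgenic and 10.49 in the wild-type array. Dnajc11, an outer membrane protein of the cristae-organising machinery, was at 8.40 in the transgenic and 8.68 in the wild-type array. Dnajc15, which assists import at the inner membrane, was at 10.47 in the transgenic and 10.74 in the wild-type array. Dnajc30, a mitochondrial J protein, was at 8.55 in the transgenic and 8.66 in the wild-type array. With Hspd1 and Hspe1 these make 6 members placed in mitochondria. On the brightest probe set of each, all were lower, with a median of -0.26 and a range from -0.28 to -0.08. Of all 9974 genes past the filter, 4409 were lower, and the median was 0.03. The second Hspd1 probe set, at 0.01, was not lower. None of the 6 members reached 1.5-fold, and this grouping by compartment was made after the values were seen. It was made by hand and may leave out other mitochondrial members, so the count and range hold for these 6 only. Of the 11 genes on a separate list of mitochondrial chaperones and proteases, 3 were higher, 7 lower and 1 equal, with a median of -0.01. On it the protease subunit Clpp was lowest (-0.32) and the HSP70 exchange factor Grpel1 highest (0.19).

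Among 10 members placed in the endoplasmic reticulum, again grouped after the values were seen, 7 were higher and 3 lower, with a median of 0.13. This placement was also by hand and may leave out members of the compartment. Over all genes past the filter, 53.5% were higher, with a median of 0.03. Dnajc1, a membrane J protein, was at 7.75 in the transgenic and 7.28 in the wild-type array (0.47). Dnajc3, which limits translation block by the stress kinases and binds unfolded proteins, was at 10.03 in the transgenic and 9.62 in the wild-type array (0.41). Its second probe set held identical values and is not an independent reading. Dnajb11, a cofactor of Hspa5, was at 8.99 in the transgenic and 8.75 in the wild-type array. Dnajb9, a stress-induced cofactor, was lower, at 10.19 in the transgenic and 10.27 in the wild-type array, and Dnajc10, a disulfide reductase, differed by 0.04. Dnajc1 and Dnajc3 were the highest of all 27 DnaJ type C genes.

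A separate list of 17 endoplasmic reticulum chaperones and stress genes had 13 higher and 4 lower, with a median of 0.12. It held Cryba4 and Dnlz by mistake, and without them 12 of 15 were higher with the same median. Edem1, which passes misfolded glycoproteins to degradation, was highest at 0.35, and Hyou1, the HSP110 relative of the compartment, was lowest at -0.07. The lectin chaperone Canx differed by 0.24. None reached 1.5-fold.

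Type A J proteins of the cytosol were higher in both members known to be stress-inducible. Dnaja4 was at 10.77 in the transgenic and 10.31 in the wild-type array (0.46). Dnaja1, which acts with Hspa8, was at 8.87 in the transgenic and 8.57 in the wild-type array on its brighter probe set (0.30), and at 7.62 in the transgenic and 7.09 in the wild-type array on the dimmer (0.53). A further probe set that it shares with a microRNA gene differed by 0.06, so its size is uncertain. Dnaja2, the constitutive member, was at 11.02 in the transgenic and 10.99 in the wild-type array. The family median of 0.17 over 4 genes was 0.03 when only genes with 1 probe set were used, which leaves Dnaja1 out.

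Among the 13 type B J proteins 8 were higher and 5 lower, with a median of 0.08, and 5 were under the filter. Dnajb4, a J protein of striated muscle, was at 11.69 in the transgenic and 11.48 in the wild-type array. Dnajb5, a relative of Dnajb1 found in heart and muscle, was at 9.91 in the transgenic and 9.83 in the wild-type array. Dnajb12 and Dnajb14, membrane J proteins counted with the endoplasmic reticulum above, differed in opposite directions, by 0.14 and -0.14. Dnajb2, which links clients to ubiquitin, differed by -0.03.

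Dnajb6, a Z-disc J protein whose human mutations cause a limb-girdle muscular dystrophy, was dim on its own probe set, at 5.53 in the transgenic and 5.13 in the wild-type array. The 4 probe sets it shares with a gene model were bright, from 10.41 to 10.58 in the transgenic and from 10.10 to 10.39 in the wild-type array, and differed by 0.19 to 0.31. All its readings were higher in the transgenic array and all under 1.5-fold. The testis J proteins Dnajb3 (0.21), Dnajb7 (-0.43), Dnajb8 (-0.13) and Dnajb13 (0.08) were under the filter.

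Type C J proteins, which share little beyond the J domain, had no common direction, with 14 of 27 higher, 12 lower and 1 equal. Their median was 0.04, and -0.02 after renewed quantile normalization. Dnajc13, an endosomal protein that acts on membrane coats, was read by the most probe sets. All 15 were higher, from 0.12 to 0.76 around a median of 0.21. They read the same gene on the same arrays, so they are not independent readings of a difference between genotypes. The largest value came from the dimmest probe set, at 7.03 in the transgenic and 6.27 in the wild-type array. The brightest was at 10.30 in the transgenic and 10.06 in the wild-type array.

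**Figure D3:**
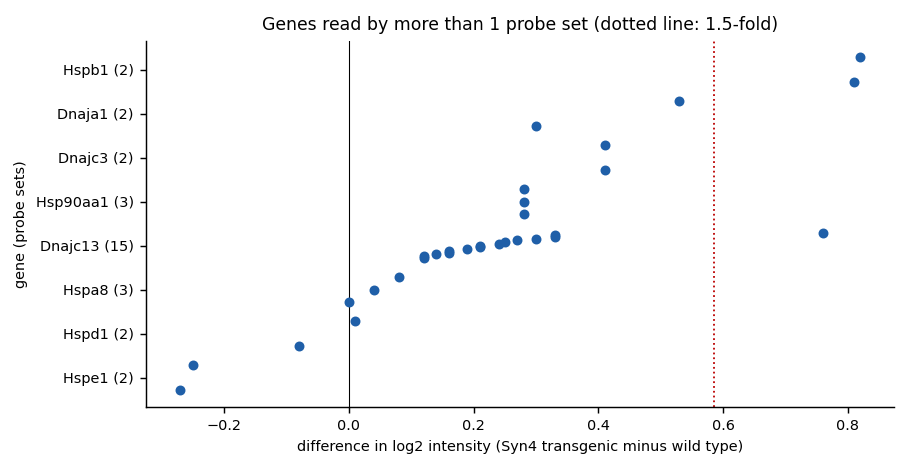
Difference in log2 intensity (x axis, transgenic minus wild type) on each probe set of the 8 genes read by more than 1, with the number of probe sets beside the gene. The dotted line is 1.5-fold. Both Hspb1 probe sets lie beyond it, all 15 of Dnajc13 lie above 0, and those of Hspd1 lie on either side of 0.

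Dnajc5, the cysteine string protein, keeps SNARE proteins folded at exocytic membranes together with Hspa8 and Sgta, and syntaxin 4 is itself a SNARE. Dnajc5 was at 10.06 in the transgenic and 10.10 in the wild-type array. Sgta was at 11.20 in the transgenic and 11.28 in the wild-type array. With Hspa8 at 0.04, all 3 parts of this complex were within 0.08 of equal, beside the 3.36 of Stx4a. The relatives Dnajc5b (-0.10) and Dnajc5g (-0.25), and Dnajc6, the clathrin-uncoating auxilin (-0.18), were under the filter.

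Among other type C genes, Dnajc4 was lowest, at 8.96 in the transgenic and 9.31 in the wild-type array (-0.35, 1.27-fold lower). Dnajc7, which passes clients between HSP70 and HSP90, was at 9.74 in the transgenic and 9.46 in the wild-type array (0.28). Dnajc18 and Dnajc12 differed by 0.24 and 0.23. The nuclear and ribosomal members lay between 0.00 and 0.18. Dnajc8, a splicing protein, differed by 0.18, Dnajc2, which acts with Hspa14 on the ribosome, by 0.14, and Dnajc21, of ribosome assembly, by 0.13. Dnajc17 differed by 0.04 and the histone chaperone Dnajc9 by 0.00. The rest ran from -0.14 for Dnajc24, a diphthamide synthesis factor, to 0.17 for Dnajc14, with Dnajc27 at -0.13, Dnajc25 at -0.11, Dnajc28 at -0.03, Dnajc16 at 0.09 and the dim Dnajc22 at 0.12.

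Of the 8 subunits of the cytosolic chaperonin past the filter, 7 were slightly higher, beside 53.5% of all genes past it. This ring, known as CCT, folds actin and tubulin, and the 8 subunits past the filter are its ubiquitous parts. Cct2 was highest, at 10.90 in the transgenic and 10.73 in the wild-type array (0.17). Cct7 differed by 0.13, Tcp1 by 0.12, Cct4 by 0.11, Cct8 by 0.10, Cct5 by 0.05 and Cct3 by 0.01. Cct6a was the exception, at 11.18 in the transgenic and 11.24 in the wild-type array (-0.06). Cct3 turned slightly negative under loess and quantile scaling, and none of the 8 reached 0.32. The tissue-restricted Cct6b (-0.02) and Cct8l1 (0.22) were under the filter. The prefoldin subunits, which hand actin and tubulin to the ring, and related partners were lower in 6 of 10 listed genes, with a median of -0.04, from Pfdn5 (-0.15) to the phosducin-like Pdcl3 (0.29).

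BAG genes, whose proteins release clients from HSP70, lay between -0.11 and 0.14 with a median of 0.02, which was -0.0013 after loess and -0.01 after quantile scaling. Bag3, the muscle member that pairs with Hspb8, was at 10.90 in the transgenic and 10.84 in the wild-type array. Bag1 was at 10.75 in the transgenic and 10.61 in the wild-type array, Bag2, an inhibitor of the ubiquitin ligase Stub1, at 7.75 in the transgenic and 7.86 in the wild-type array, and Bag5 at 8.36 in the transgenic and 8.24 in the wild-type array. Bag4 (-0.02) and Bag6, which guards tail-anchored proteins (-0.06), were near equal.

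Chaperone-assisted selective autophagy is the route by which Bag3 and Hspb8 clear damaged filamin. Of 12 other listed genes of this route 8 were higher and 4 lower, with a median of 0.04. Flnc, the muscle filamin that this route acts on, was at 12.95 in the transgenic and 12.40 in the wild-type array, a difference of 0.55 just under 1.5-fold. Filip1l was lowest at -0.27, and Stub1 differed by -0.17.

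Heat shock factor genes showed no difference beyond 0.10, and their median of 0.03 was -0.01 after quantile scaling. Hsf2 was at 9.34 in the transgenic and 9.24 in the wild-type array, and Hsf4 at 8.35 in the transgenic and 8.30 in the wild-type array. Hsf3 (0.00) and Hsf5 (-0.06) were under the filter. Among 10 measured regulators of these factors and other heat-responsive genes, 9 were higher with a median of 0.11. The metallothionein gene Mt2 was higher by 1.01, at 9.96 in the transgenic and 8.95 in the wild-type array, while Zfand2a, a gene induced by heat and arsenite, was lowest at -0.03. Serpinh1, the collagen chaperone, differed by 0.37 and Hsbp1, which restrains heat shock factor, by 0.08.

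HSP90 cochaperones showed no common direction, with 11 of 27 higher, 16 lower and a median of -0.04. Fkbp5, a cochaperone of steroid receptors and a target of glucocorticoids, was 1.51-fold lower, at 8.27 in the transgenic and 8.86 in the wild-type array. Ahsa2, an activator of the HSP90 ATPase, was highest at 9.33 in the transgenic and 8.75 in the wild-type array (0.58, just under 1.5-fold). The myosin chaperone Unc45b was at 11.46 in the transgenic and 11.04 in the wild-type array (0.42), whereas its partner, the methyltransferase Smyd1, was at 11.98 in the transgenic and 12.17 in the wild-type array (-0.19). Stip1, which joins HSP70 to HSP90, differed by 0.10. Of 8 partners of HSP70 outside these families, 2 were higher and 6 lower (median -0.10), from the exchange factor Hspbp1 (-0.33) to Ubqln2 (0.21).

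**Figure D4:**
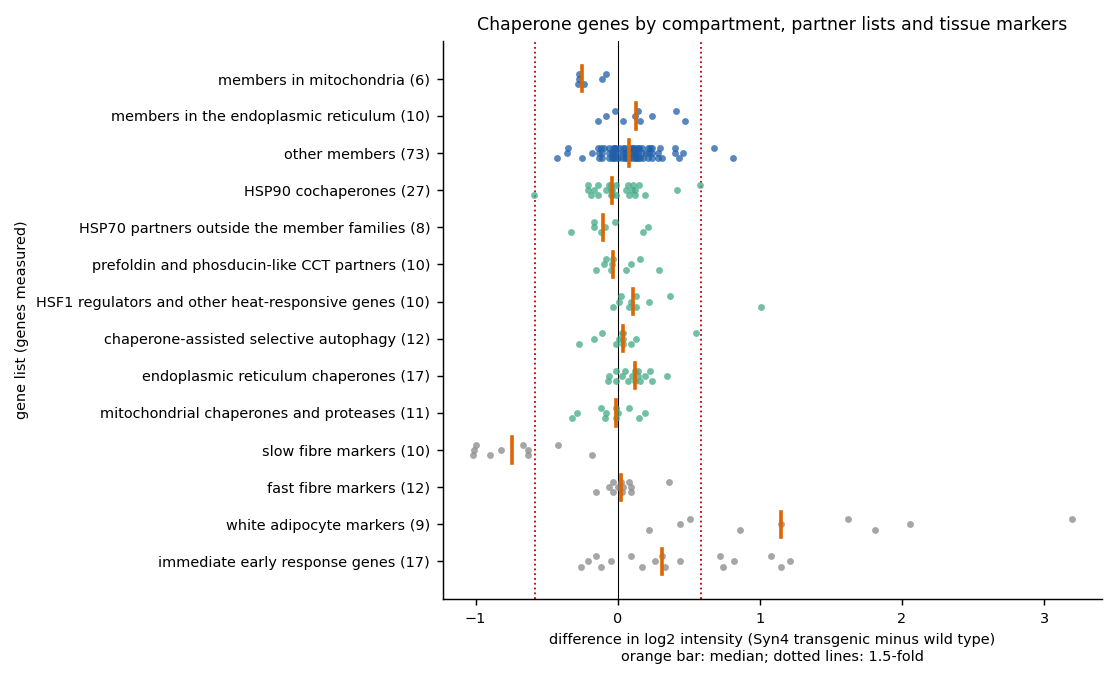
Difference in log2 intensity (x axis, transgenic minus wild type) of each gene in rows for chaperone genes by compartment (blue), partner lists (green) and tissue markers (grey). Orange bars are medians and dotted lines mark 1.5-fold. The 6 members placed in mitochondria, each at its brightest probe set, all lie below 0. The slow fibre markers lie further below and the white adipocyte markers lie above.

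Slow fibre and white adipocyte markers differed between the same arrays. Each of 10 slow fibre markers was lower, with a median of -0.74 from Myl3 (-1.02) to Casq2 (-0.18), and their summed linear intensity in the transgenic array was 0.60 of that in wild type. The 12 fast fibre markers had a median of 0.03. All 9 measured white adipocyte markers were higher, with a median of 1.15 from Fabp4 (0.22) to Lep (3.20), and a summed intensity 1.77 times that in wild type. Of 17 genes of the immediate early response to acute stimulation, 12 had higher values (median 0.31), from Jund (-0.26) to Egr1 (1.21).

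The other markers lay between. Smooth muscle markers had a median of 0.24 (8 of 9 higher, from Rgs5 at -0.08 to Cnn1 at 0.88), and fibroblast and matrix markers 0.27 (10 of 10 higher, from Dcn at 0.14 to Lum at 0.74). The median was 0.30 for Schwann cell and nerve markers (6 of 7 higher, from Nefl at -0.29 to Egr2 at 1.08) and 0.17 for macrophage markers (7 of 9 higher, from Adgre1 at -0.12 to C1qa at 0.25). Satellite cell genes had a median of 0.22 (5 of 8 higher, from Pax7 at -0.33 to Ncam1 at 1.14) and endothelial markers -0.10 (3 of 8 higher, from Kdr at -0.44 to Vwf at 0.32). In whole tissue, a change in the share of a cell type and a change of RNA per cell cannot be told apart. Hspb1, Hsph1 and Dnajb1 are made by many cell types, and the part of these markers in the chaperone differences was not tested.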

How the data were processed

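Total RNA of hindlimb muscle was hybridised to 1 array per genotype. The authors deposited log2 intensities of 35556 probe sets. Per the submitters' processing notes they used RMA and Partek. Versions, steps and the array design's build are not stated there. RMA tends to compress large ratios. The median was 6.06 in both arrays. No scanner intensities or protein sequences were used here, and precision is limited by having so few arrays.

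Of the probe sets, 21789 carried 1 gene symbol in the platform annotation, 1621 several and 12146 none. All 89 chaperone genes matched RefSeq (GRCm38.p6) by Entrez identifier with unchanged symbols. For genes with several probe sets, the one with the highest mean was used. Differences, medians and counts were computed in Python 3.11.15 with pandas 2.3.3 and statsmodels 0.14.6, and the counting steps were checked on simulated data. With 1 array per group nothing was tested. Any chaperone gene could be named. Of other lists, the highest and lowest genes and those past 1.5-fold were named by rule, and further genes after their values were seen. The chaperone genes and all lists were chosen with earlier results of these data known. The alternatives were other level filters (none, the 95th percentile of olfactory receptor genes at 5.42, or both arrays), thresholds of 0.32 on the log2 scale and 2-fold, averaged probe sets, genes with 1 probe set, median centring, a loess trend (span 0.3), quantile normalization and family means.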

Additional observations from a re-analysis of the deposited data

Results flagged for a closer look

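A pair of probe sets that Hspa8 shares with the small nucleolar RNA genes Snord14c and Snord14d lay outside the naming rule and differed by 1.16, with identical values of 8.21 in the transgenic and 7.05 in the wild-type array. The probe sets that carry the Hspa8 symbol alone differed by 0.00 to 0.08.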

How the results depend on the processing

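No paired analysis was possible because each genotype has 1 array, and no library could be left out. A value was taken as unmoved when it shifted by less than 0.1 on the log2 scale, or by less than 1.5 times for a count. Of 561 values recomputed under the alternatives, 554 were unmoved and none called at 1.5-fold reversed. Many of these values could not move. Only 8 of the 89 genes have more than 1 probe set, so the alternatives for probe sets left the other genes as they were. Median centring moved no gene, because the median difference was 0.00. Among chaperone genes, a reversal could be called only for Hspb1 and Dnajb1. Of the 7 that moved, most were counts of higher chaperone genes. That count, 2 as reported, was 1 with the filter asked of both arrays, which Dnajb1 did not pass, 1 with genes of 1 probe set only, which leaves Hspb1 out, 0 at 2-fold and 7 at a threshold of 0.32. The count of lower genes, 0 as reported, was 2 at 0.32. The DnaJ type A median was 0.03 with genes of 1 probe set only, and Dnaja1 was at 0.42 when its probe sets were averaged. Over all genes, the counts at 1.5-fold were 265 higher and 171 lower as reported, 244 and 189 after loess, and 233 and 211 after quantile normalization. Loess turned the sign of 4 chaperone genes and quantile normalization that of 5, none over 0.05 in size as reported.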
